A study of Equus caballus with 6 samples.

Results

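The proteasome genes were taken from the array annotation by symbol. They are the genes whose symbol starts with PSMA, PSMB, PSMC, PSMD, PSME, PSMF or PSMG, and a gene with several probe sets was read from the brightest, by mean log2 signal over the 6 arrays. The rule found 40 genes, on 46 probe sets, among 9155 genes with a symbol on the array. Of these 40, 35 were bright enough to test, among 6151 tested genes. They were measured in lamellar hoof tissue, the folded epidermis and dermis that holds the coffin bone within the hoof, in 3 samples with laminitis (replicates 1, 3 and 4) and 3 normal samples (replicates 2, 3 and 4). All samples came from the right foot of horses. The comparison asked how the transcript levels of diseased lamellae differ from those of normal lamellae. The way laminitis arose and the age, breed and number of horses are not given in the sources used here, and a p-value here covers the scatter among these arrays alone, whether biological or technical.

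The proteasome breaks down proteins that carry a chain of ubiquitin. Its core particle is a barrel of outer alpha and inner beta rings, with the catalytic sites inside. A regulatory cap, made of a base with ATPases and a lid, recognises, unfolds and feeds in the substrate. Interferon induces alternative catalytic subunits, which form the immunoproteasome, and an activator ring of PSME1 and PSME2, and both shift the peptides made for MHC class I presentation. Cells short of proteasome activity are known, in human and mouse, to raise most subunit genes together through the transcription factor NFE2L1.

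Horse RNA was read by bovine probes, 1 array per sample. Array medians lay between 86.7 and 93.2 on the laminitis arrays and between 92.6 and 96.6 on the normal arrays, in the authors' linear signal units, at a common trimmed mean. Array means lay between 230.1 and 242 in laminitis and between 211 and 222.9 in normal tissue. The ratio of the 3′ to the 5′ GAPDH control probe set was 4.06 to 9.70 in laminitis and 5.51 to 6.87 in normal tissue, and that of actin 4.71 to 6.62 in laminitis and 2.08 to 6.25 in normal tissue. Keratinocyte genes were present, with KRT14 at 469 to 509 in laminitis and 143 to 609 in normal tissue. All 40 gene symbols are also names of horse genes in RefSeq. Each bovine probe set matches horse RNA to its own extent, so genes are not ranked by level, and where signals of several probe sets were subtracted or summed only the comparison between arrays is read.

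Among the 35 tested proteasome genes, 25 had a log2 difference above 0 between laminitis and normal tissue and 10 below 0, with a median of 0.21. The share of all tested genes above 0 was 46.4%, with a median of -0.029. The limma test, adjusted by Benjamini-Hochberg over all tested probe sets, called 0 proteasome genes and 0% of all genes, and the smallest adjusted p among proteasome genes was 0.345. At an unadjusted limma p under 0.05, 4 proteasome genes were higher in laminitis, namely PSMB4, PSMD11, PSME2 and PSMD2, and 0 were lower, against 5.27% of all genes higher and 4.52% lower. All 4 lay in the brightest of 4 equal bands of genes by mean signal, where 10.4% of the other genes were higher by this measure. The count of higher proteasome genes was 1, PSME2, after quantile normalization and 2 after cyclic loess normalization, and it was 2 without normal replicate 3 and 7 without laminitis replicate 4. The count of lower ones was 1, PSMD5, with array weights and without normal replicate 4, and 1, PSMB3, without laminitis replicate 3. The groups were apart, with all laminitis arrays above the normal ones, for 6 proteasome genes, PSMA7, PSMB1, PSMB4, PSMD2, PSMD11 and PSME2, as for 8.7% of all genes. For PSMB3 and PSMD5 the laminitis arrays all lay below the normal ones, as for 8.36% of all genes. With 3 arrays per group the 95% intervals reached across 0 for all tested proteasome genes other than PSMB4, PSMD2, PSMD11 and PSME2.

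**Figure D1:**
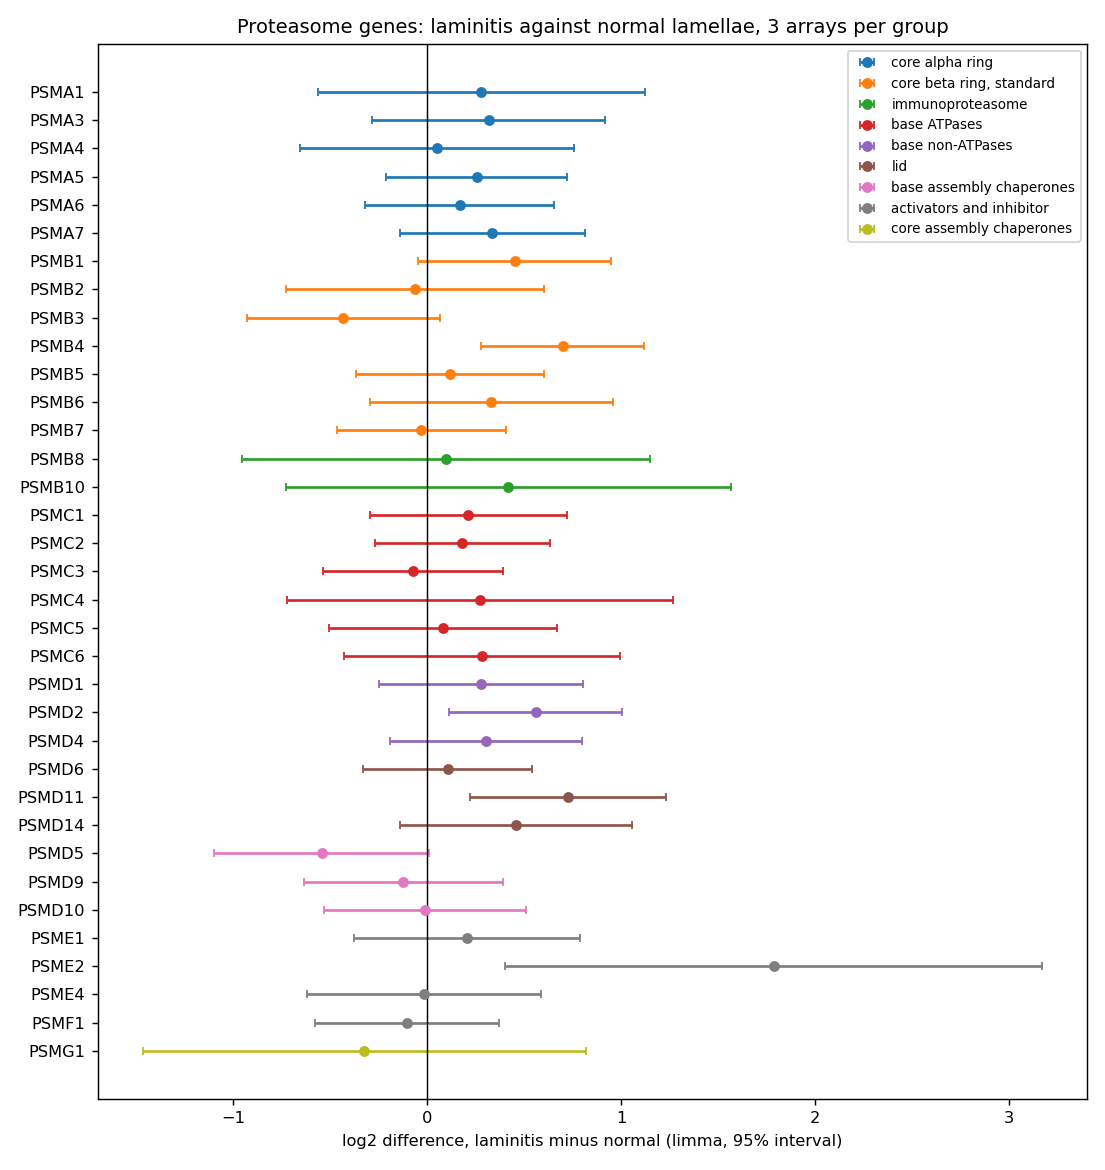
Log2 difference between laminitis and normal tissue (x axis, laminitis minus normal) for the 35 tested proteasome genes, 1 row each, coloured by role; points are limma estimates and bars their 95% intervals, with 3 arrays per group. The intervals of PSMB4, PSMD2, PSMD11 and PSME2 lie above 0, and PSME2 has the largest difference at 1.79.

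Most proteasome genes are bright on these arrays, and bright genes as a whole tended upward in laminitis. When the tested genes were split into 4 bands of equal size by mean signal, 22 of the 35 proteasome genes fell in the brightest band. In that band 19 of the 22 proteasome genes had a difference above 0, with a median of 0.27, while 61.6% of the other 1516 genes did, with a median of 0.10. Of those 22, 5 kept every laminitis array above every normal array, a share of 22.7%, against 17.9% of the other genes of the band. In the other 3 bands 2 of 4, 1 of 3 and 3 of 6 proteasome genes were above 0, where 41.3%, 39.6% and 42.7% of the other genes were. Quantile normalization, which gives every array the same distribution, moved the median of the 35 genes to 0.074 with 23 above 0, and that of the other bright genes to -0.026. Centring each array on its median gave 30 of 35 above 0, with a median of 0.29, and 56.1% of all genes above 0. Within the brightest band the proteasome genes had a median of 0.078 after quantile normalization and 0.36 after centring, where the other genes had -0.026 and 0.18. In the median the proteasome genes thus lay above the other bright genes under these 3 scalings, and the difference between the gene groups was not tested.

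**Figure D2:**
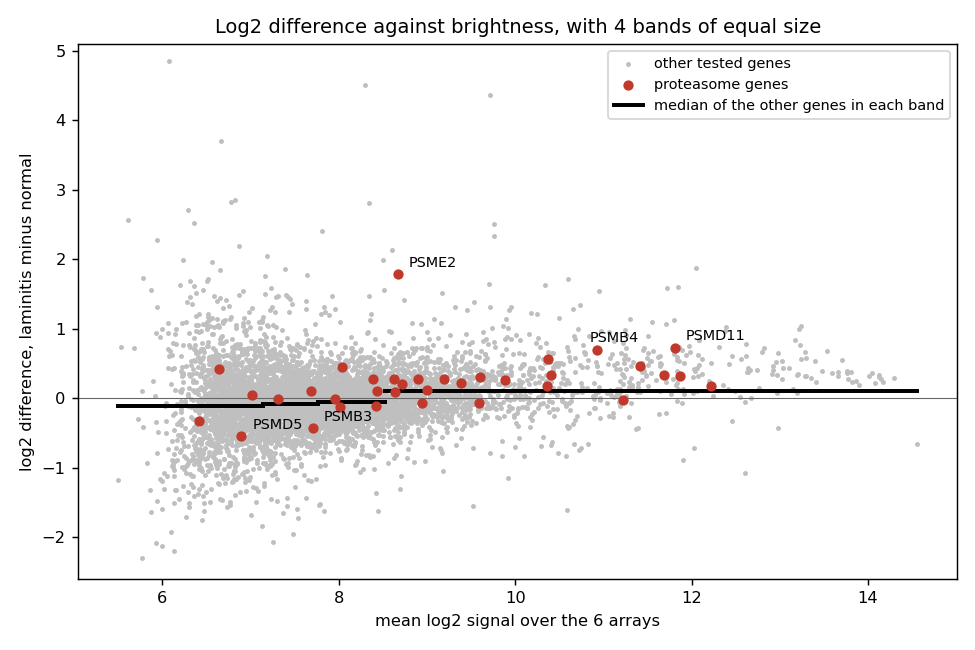
Log2 difference between laminitis and normal tissue (y axis) against mean log2 signal over 6 arrays (x axis) for 6151 tested genes; proteasome genes are red, other genes grey, and black lines are the medians of the other genes in 4 bands of equal size. The line steps up to 0.10 in the brightest band, which holds 22 of the 35 proteasome genes.

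The alpha ring of the core gates the entry of substrates. Its 6 tested genes all had differences above 0 as deposited, with a median of 0.27, but after quantile normalization PSMA3, PSMA6 and PSMA7 were below 0 and the median was -0.010, and after cyclic loess normalization PSMA3 and PSMA6 were below 0. None passed the limma test, where the smallest adjusted p was 0.625. PSMA7 had signals of 4378, 3758 and 3117 on laminitis replicates 1, 3 and 4, and of 2935, 3004 and 2890 on normal replicates 2, 3 and 4. The groups did not overlap, but laminitis replicate 4 stood close to the normal arrays. PSMA7 had a log2 difference of 0.34 ± 0.20 (SE, n = 3 per group). PSMA5 had 1156, 1079 and 891 in laminitis and 913, 783 and 914 in normal tissue (0.26 ± 0.20). PSMA3 had 4736, 4790 and 3188 in laminitis and 3350, 2759 and 4042 in normal tissue (0.32 ± 0.25). For PSMA5 and PSMA3 laminitis replicates 1 and 3 were the highest arrays, while replicate 4 fell within the normal range. PSMA1, PSMA4 and PSMA6 had differences of 0.28, 0.051 and 0.17. The PSMA1 difference was 0.073 without laminitis replicate 1 and 0.66 without laminitis replicate 4. The median of the alpha ring was 0.13 without laminitis replicate 1 and 0.41 without laminitis replicate 4, each with 5 of 6 genes above 0.

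The beta ring carries the catalytic sites. Its standard subunits diverged, with 4 of 7 above 0 and a median of 0.12. PSMB4, a structural subunit that takes part in ring assembly, had the smallest p of all proteasome genes. Its signals were 2656, 2436 and 2363 in laminitis and 1485, 1469 and 1636 in normal tissue. The gap between the groups was wider than the spread within either. PSMB4 was 1.62-fold higher in laminitis (log2 0.70 ± 0.18, 95% interval 0.28 to 1.12, limma adjusted p 0.345), but 0.39 after quantile normalization. Leaving out any 1 array moved it only between 0.65 and 0.75. PSMB1, another subunit without catalytic activity, had 364, 283 and 282 in laminitis and 231, 194 and 252 in normal tissue (0.45 ± 0.21, limma adjusted p 0.550). All 3 laminitis arrays were above the normal arrays. PSMB3, also non-catalytic, ran the other way, with 156, 223 and 167 in laminitis and 252, 240 and 236 in normal tissue. Its difference was -0.43 ± 0.21 (limma adjusted p 0.561), and laminitis replicate 3 came close to the normal arrays.

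The standard catalytic subunits did not separate the groups. PSMB5, which carries the chymotrypsin-like site, had 452, 554 and 600 in laminitis and 502, 537 and 436 in normal tissue, with a 95% interval of the log2 difference from -0.37 to 0.60. PSMB6, which carries the caspase-like site, had 1470, 1924 and 1249 in laminitis and 1435, 1341 and 923 in normal tissue, with an interval from -0.30 to 0.96. PSMB7, which carries the trypsin-like site, had 2641, 2257 and 2206 in laminitis and 2518, 2464 and 2260 in normal tissue, with an interval from -0.47 to 0.41. The groups overlapped for all 3 genes. PSMB2, a structural subunit, had -0.065 ± 0.28 by its brightest probe set and 0.24 by the other.

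The 2 tested immunoproteasome subunits had differences above 0, with a median of 0.26, but both were below 0 without normal replicate 2, with a median of -0.27. The normal arrays were spread widely. PSMB8, the chymotrypsin-like subunit of the immunoproteasome, had 249, 194 and 201 in laminitis and 101, 219 and 359 in normal tissue. Normal replicate 2 was the lowest and normal replicate 4 the highest of the 6 arrays, so the laminitis arrays lay inside the normal range. The log2 difference was 0.098 ± 0.45 (limma adjusted p 0.957), and it was -0.40 without normal replicate 2 and 0.52 without normal replicate 4. PSMB10, the trypsin-like subunit, had 124, 132 and 93.1 in laminitis and 39.0, 113 and 145 in normal tissue, the same order of normal arrays as in PSMB8. Its difference was 0.42 ± 0.49, and -0.15 without normal replicate 2. PSMB9, which takes the place of PSMB6, was below the array median on all 6 arrays and was not tested. It had 52.8, 49.1 and 48.7 in laminitis and 19.6, 60.6 and 65.0 in normal tissue. In all 3 genes normal replicate 2 was the lowest array and normal replicate 4 the highest.

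Each immunoproteasome subunit replaces a standard subunit in the core, so the exchange was read within each array as the log2 signal of the immuno subunit minus that of its standard counterpart. Its absolute size depends on the probes, and only its change between the groups is given. For PSMB8 minus PSMB5 it varied with an SD of 0.40 in laminitis and 1.02 in normal tissue (n = 3 each). The change between groups was -0.020 (exact permutation test, two-sided, p = 1, adjusted p = 1). For PSMB10 minus PSMB7 the SDs were 0.24 for laminitis and 1.07 for normal tissue, with a change of 0.45 (exact permutation test, two-sided, p = 0.8, adjusted p = 1 over the 2 pairs). The smallest p possible with 3 arrays against 3 is 0.1, so no such comparison can pass 0.05. The SD within normal tissue exceeded the change in both pairs.

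The base of the cap holds a ring of 6 ATPases that unfold the substrate. Of these 5 had differences above 0 and 1, PSMC3, below 0, with a median of 0.20, and after quantile normalization 4 of 6 were above 0 with a median of 0.073. The median ranged with 1 array left out from 0.071 without normal replicate 2, where 3 of 6 were above 0, to 0.29 without laminitis replicate 4, and it was 0.10 without laminitis replicate 1 and 0.082 without laminitis replicate 3. PSMC1 had 877, 668 and 633 in laminitis and 588, 573 and 708 in normal tissue (log2 0.21 ± 0.22). PSMC2 had 1386, 1594 and 1236 in laminitis and 1255, 1284 and 1163 in normal tissue (0.18 ± 0.19). PSMC6 had 749, 855 and 415 in laminitis and 565, 481 and 543 in normal tissue (0.28 ± 0.30). The groups overlapped for every ATPase, and for PSMC6 laminitis replicate 4 was the lowest of the 6 arrays. PSMC4 spanned 295 to 527 in laminitis and 200 to 525 in normal tissue, with its low value on normal replicate 2. The smallest limma adjusted p among the ATPases was 0.773.

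The scaffold and receptor subunits of the base lay above 0 in all 3 tested genes, with a median of 0.30, or 0.23 after quantile normalization. PSMD2, a large scaffold subunit that docks ubiquitin-binding factors, had 1748, 1516 and 1557 in laminitis and 1014, 1039 and 1225 in normal tissue. All 3 laminitis arrays were above the normal arrays. It was 1.47-fold higher in laminitis (log2 0.56 ± 0.19, 95% interval 0.11 to 1.00, limma adjusted p 0.456), and 0.30 after quantile normalization. PSMD1, the other large scaffold subunit, had 592, 548 and 450 in laminitis and 436, 362 and 519 in normal tissue (0.28 ± 0.22). PSMD4, a ubiquitin receptor, had 720, 970 and 916 in laminitis and 733, 754 and 615 in normal tissue (0.30 ± 0.21). A dimmer PSMD4 probe set gave 0.29. PSMD1 and PSMD4 overlapped between the groups on 1 laminitis array each, replicate 4 for PSMD1 and replicate 1 for PSMD4.

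The lid releases the ubiquitin chain. Its 3 tested genes were above 0, with a median of 0.46, or 0.11 after quantile normalization and 0.25 without laminitis replicate 1. PSMD11, a scaffold subunit of the lid, had 5020, 4498 and 4399 in laminitis and 2763, 2318 and 3412 in normal tissue. No laminitis array came down to the highest normal array, replicate 4. PSMD11 was 1.66-fold higher in laminitis (log2 0.73 ± 0.21, 95% interval 0.22 to 1.23, limma adjusted p 0.402). Its difference shrank to 0.27 after quantile normalization and 0.38 after cyclic loess normalization, an alternative added once results were known. PSMD14, the deubiquitinase of the lid, had 4276, 3212 and 2384 in laminitis and 2276, 2481 and 2232 in normal tissue (0.46 ± 0.25, limma adjusted p 0.597). Laminitis replicates 1 and 3 stood above the normal arrays and replicate 4 among them, and the difference was 0.25 without laminitis replicate 1 and 0.083 after quantile normalization. PSMD6, another scaffold subunit of the lid, had 397, 334 and 348 in laminitis and 357, 333 and 311 in normal tissue (0.11 ± 0.18). PSMD13, also of the lid, read between 9.35 and 19.5 on all arrays and was not tested.

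The chaperones that assemble the base are not part of the finished proteasome. All 3 had differences below 0 as deposited, though PSMD10 was above 0 after quantile normalization, cyclic loess or median centring. PSMD5 had 84.4, 110 and 103 in laminitis and 154, 171 and 113 in normal tissue. The groups did not overlap, but normal replicate 4 was only just above the highest laminitis array. PSMD5 had the lowest difference of all 35 genes, -0.55 ± 0.23 (limma adjusted p 0.517), and -0.46 after quantile normalization. PSMD9 had 200, 303 and 253 in laminitis and 262, 285 and 265 in normal tissue (-0.12 ± 0.22). PSMD10, also known as gankyrin, had 297, 206 and 248 in laminitis and 215, 267 and 270 in normal tissue (-0.012 ± 0.22). Of the chaperones of the core, PSMG1 had 138, 60.6 and 52.5 in laminitis and 107, 55.5 and 146 in normal tissue (-0.33 ± 0.48). PSMG2 and PSMG3 were above the array median on 1 array each and were not tested.

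PSME2 had the largest difference of all tested proteasome genes, with a wide spread within laminitis. With PSME1 it forms the interferon-inducible ring that opens the core without ATP. PSME2 had 1858, 739 and 317 on laminitis replicates 1, 3 and 4, and 211, 199 and 251 on normal replicates 2, 3 and 4. The groups did not overlap, but laminitis replicate 1 stood far above the others and replicate 4 came near the normal arrays. PSME2 averaged 972 ± 796 in laminitis and 220 ± 27.4 in normal tissue (SD, n = 3 each). It was 3.46-fold higher in laminitis by geometric means (log2 1.79 ± 0.59, 95% interval 0.40 to 3.17, limma adjusted p 0.450). The log2 difference was 1.14 without laminitis replicate 1 and 2.42 without laminitis replicate 4, and the unadjusted limma p was no longer under 0.05 without normal replicate 3.

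The partner PSME1 had 596, 451 and 339 in laminitis and 400, 378 and 395 in normal tissue (log2 0.21 ± 0.25, limma adjusted p 0.812). Its difference was 0.0026 without laminitis replicate 1 and 0.41 without laminitis replicate 4. Laminitis replicate 1 was again the highest array and replicate 4 the lowest of all 6. In the RefSeq table of the horse assembly TB-T2T no other gene lies wholly between PSME1 and PSME2, nor between PSMB9 and TAP1. PSME4, a large activator of the nucleus, had 214, 135 and 137 in laminitis and 161, 137 and 186 in normal tissue (-0.016 ± 0.26). PSMF1, a protein that inhibits the core in vitro, had 294, 351 and 351 in laminitis and 417, 324 and 335 in normal tissue (-0.11 ± 0.20). Both overlapped between the groups. PSME3IP1, which binds the activator subunit PSME3 and is not a subunit itself, read 12.1, 12.8 and 87.3 in laminitis and at most 23.2 in normal tissue and was not tested. PSMA2, PSMA8, PSMB11, PSMD3, PSMD7, PSMD8, PSMD12, PSME3 and PSMG4 had no probe set under a single symbol in the annotation and were not analysed here. The same holds for PSMC3IP, which shares the prefix and is not a proteasome part.

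**Figure D3:**
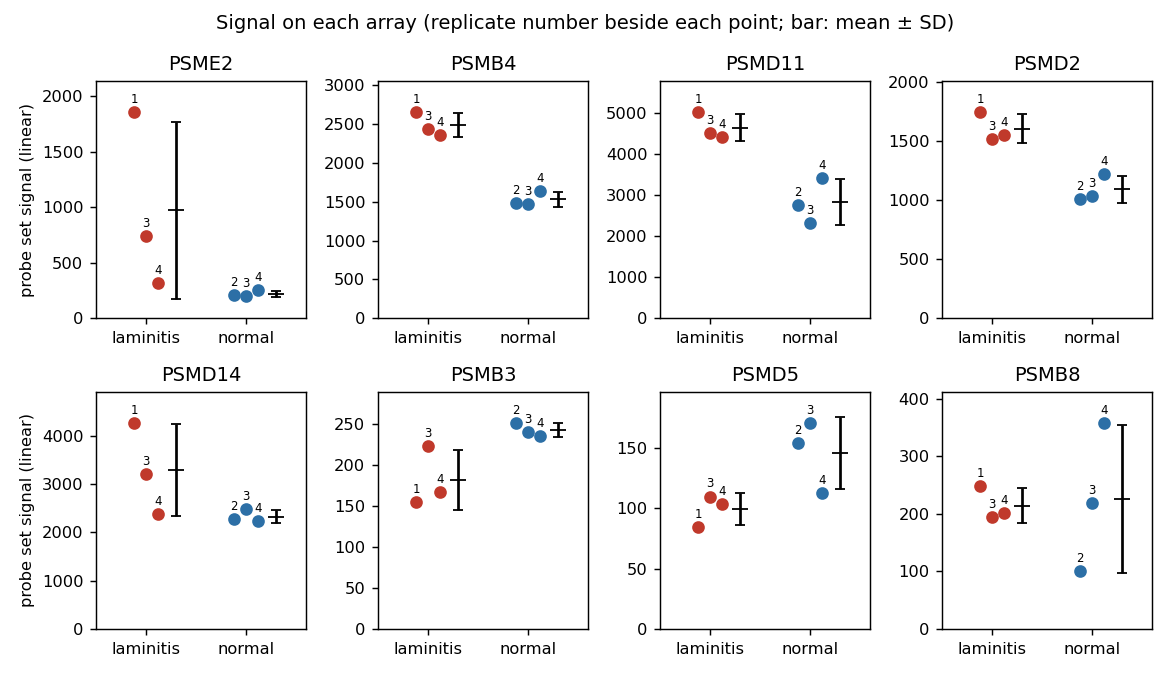
Linear probe set signal (y axis, from 0) on each array for 8 proteasome genes, with laminitis left in red and normal tissue right in blue; numbers are replicate numbers and black bars are the mean ± SD of 3 arrays. PSMB4, PSMD11 and PSMD2 separate the groups, PSMD11 with normal arrays spread from 2318 to 3412, PSME2 runs from 317 to 1858 within laminitis, and PSMB8 runs from 101 to 359 within normal tissue.

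The upward tilt of the proteasome genes as a whole was seen on 2 of the 3 laminitis arrays. On laminitis replicates 1, 3 and 4 the median of the 35 genes lay at 0.31, 0.18 and -0.089 relative to each gene's mean over the arrays, and on normal replicates 2, 3 and 4 at -0.080, -0.085 and -0.077. The count of genes above their own mean was 28, 26 and 10 of 35 on the laminitis arrays and 12, 12 and 13 on the normal arrays. Laminitis replicate 4 thus had a median near that of the normal arrays, while PSMA7, PSMB1, PSMB4, PSMB5, PSMD2, PSMD4, PSMD11 and PSME2 exceeded every normal array on it. Laminitis replicate 1, where the tilt was largest, also had the highest 3′ to 5′ ratios of the 6 arrays, 9.70 for GAPDH and 6.62 for actin. Laminitis replicate 3, which also tilted upward, had the lowest GAPDH ratio of the 6 arrays, 4.06, and 4.71 for actin. Normal replicate 2, with no upward tilt, had 6.87 and 6.25. The part of these ratios in the result was not tested. Other genes of the brightest band moved in the same order but less, with medians of 0.13, 0.061 and -0.0073 on the laminitis arrays and between -0.073 and -0.025 on the normal arrays. Without laminitis replicate 1 the median difference of the 35 genes was 0.078, and without laminitis replicate 4 it was 0.30.

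**Figure D4:**
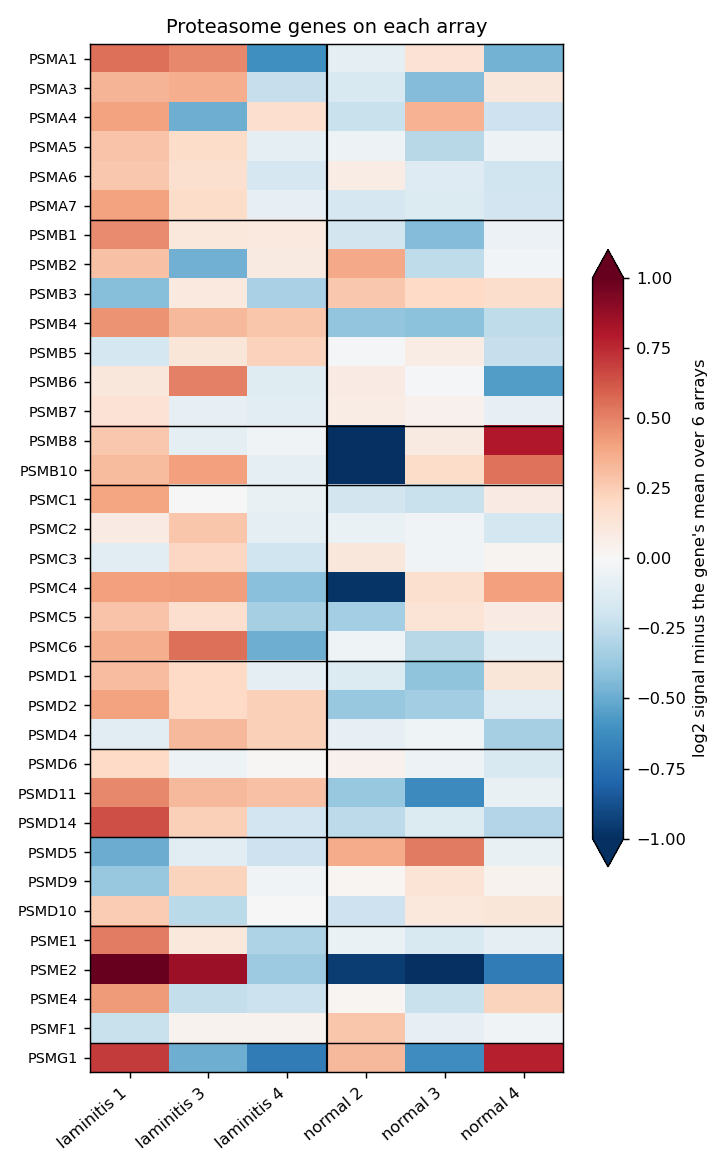
Log2 signal of the 35 tested proteasome genes (rows, grouped by role) on the 6 arrays (columns, laminitis left and normal right) relative to each gene's mean over arrays, with red above and blue below and the scale ending at 1 and -1. Red dominates laminitis replicates 1 and 3, with 28 and 26 of 35 genes above their mean, and replicate 4 has 10.

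**Figure D5:**
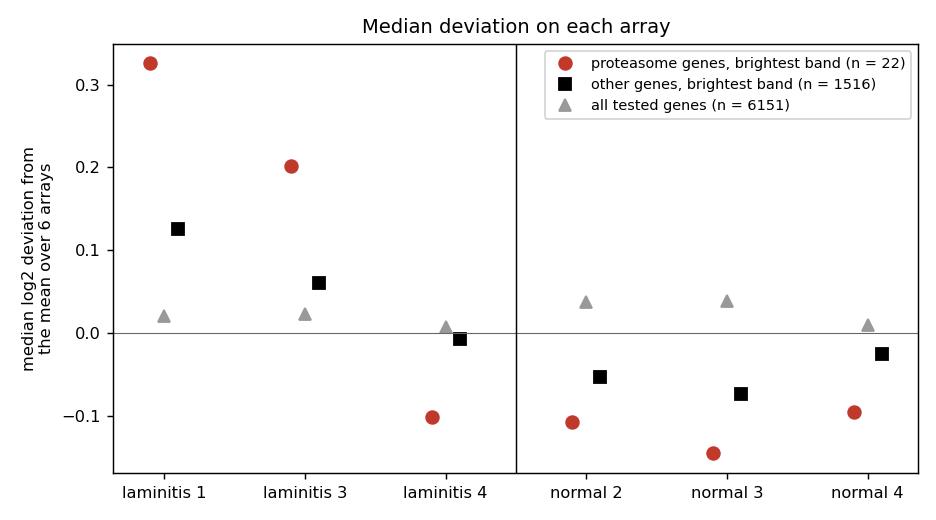
Median log2 deviation from the mean over 6 arrays (y axis) on each array (x axis, laminitis left) for the 22 proteasome genes of the brightest band, the other 1516 genes of that band and all 6151 tested genes. Proteasome genes and other bright genes are both highest on laminitis replicate 1, at 0.33 and 0.13.

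Partners of the proteasome that lack its gene prefix were described from a list of 27 names, of which 17 were tested. Of these 0 passed the limma test, 11 had a difference above 0, and the median was 0.25. The laminitis arrays all lay above the normal ones for 7 of the 17 and below them for 1, ZFAND2A, against 8.7% and 8.36% of all genes and, for higher, 17.9% in the brightest band. ZFAND5, which stimulates the proteasome, had 10185, 8600 and 6158 in laminitis and 2612, 2127 and 1942 in normal tissue (log2 1.88 ± 0.25, limma adjusted p 0.136). AKIRIN2, which carries proteasomes into the nucleus, had 1106, 1237 and 980 in laminitis and 592, 536 and 584 in normal tissue (0.95 ± 0.19, limma adjusted p 0.238). NFE2L1, the transcription factor of subunit genes, had 1370, 1988 and 1657 in laminitis and 823, 813 and 1127 in normal tissue (0.86 ± 0.24, limma adjusted p 0.360). For these 3 genes every laminitis array, replicate 4 included, exceeded every normal array. UCHL5, a deubiquitinase of the cap, had 113, 187 and 123 in laminitis and 98.9, 54.5 and 78.4 in normal tissue (0.88 ± 0.30, limma adjusted p 0.468). It lay in the dimmest of the 4 bands and was below the array median on normal replicates 3 and 4, so it passed the filter through laminitis. POMP, which matures the core, and ADRM1, a ubiquitin receptor of the base, had -0.15 ± 0.26 and -0.19 ± 0.34.

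Among ubiquitin and the enzymes that activate and conjugate it, 17 genes were tested, 0 passed the limma test, 12 were above 0 and the median was 0.11. At an unadjusted limma p under 0.05, 5 were higher in laminitis and 0 lower, against 5.27% and 4.52% of all genes. The 5 lay in the brightest band, where 10.4% of genes other than proteasome genes were higher. The conjugating enzyme UBE2H had 884, 995 and 843 in laminitis and 560, 532 and 604 in normal tissue (log2 0.68 ± 0.18, limma adjusted p 0.352). UBE2D3, UBE2B and UBE2Q1, also conjugating enzymes, had differences of 0.57, 0.57 and 0.48. The peptide loading list, which receives proteasome products for MHC class I, had 6 tested genes, with 0 past the limma test, 3 above 0 and a median of 0.0022. The peptide transporter TAP1 had 111, 89.5 and 142 in laminitis and 187, 165 and 134 in normal tissue (-0.52 ± 0.25, limma adjusted p 0.556). CANX, a chaperone of class I folding, had 0.65 ± 0.35, the peptidase ERAP1 had 0.45 ± 0.34, and B2M, the light chain of class I molecules, had -0.31 ± 0.31.

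Genes listed as markers of cell types also differed between the arrays. In whole tissue, fewer cells of a type and less RNA per cell cannot be told apart. The summed signal of 16 leukocyte markers ran from 3030 to 14917 in laminitis and from 2053 to 2548 in normal tissue. The largest terms of this sum on every laminitis array were the calprotectin genes S100A8 and S100A9. S100A8 alone had 9810, 7256 and 779 on laminitis replicates 1, 3 and 4, and 429, 133 and 110 on the normal arrays. S100A9 had 2947, 2392 and 486 in laminitis and 190, 35.0 and 43.0 in normal tissue. S100A8 and S100A9 fell from laminitis replicate 1 to 3 to 4, as PSME2 did. The medians of the proteasome genes and of the other bright genes had this order too, and a link was not tested. Other leukocyte markers were mixed, as PTPRC fell in this order while CYBB and CD2 did not. Of 12 tested leukocyte markers 3 were above 0 and 9 below, with a median of -0.20 and 0 past the limma test, and the pan-leukocyte marker PTPRC read 99.7, 31.1 and 13.0 in laminitis and 94.4, 62.9 and 10.5 in normal tissue. CYBB, of the phagocyte oxidase, had 233, 265 and 256 in laminitis and 37.4, 40.8 and 107 in normal tissue, and was above the normal arrays on all 3 laminitis arrays. CYBB and S100A9 were each above the array median on 4 of 6 arrays. Normal replicates 2 and 3 were below it for CYBB, and normal replicates 3 and 4 for S100A9. Both genes thus passed the filter through the laminitis arrays, where they are high. The summed fibroblast signal ran from 8676 to 30597 in laminitis and from 8724 to 31362 in normal tissue. The 8 tested fibroblast genes had a median of 0.33, with DCN at -1.61 ± 0.42. The summed keratinocyte signal ran from 2924 to 4237 in laminitis and from 2615 to 3702 in normal tissue, and that of endothelial and mural markers from 2349 to 3605 in laminitis and from 3167 to 4170 in normal tissue. The 6 tested keratinocyte genes had a median of 0.093, led by ITGB4 at 1.29 ± 0.57, and the 4 endothelial and mural genes a median of -0.046, with TAGLN at -0.83 ± 0.34. The 3 nerve and Schwann cell genes had a median of -0.26, and no gene of red cells was bright enough to test. The part of cell makeup and of RNA quality in the differences of the proteasome genes was not tested.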

How the data were processed

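RNA of 3 laminitis and 3 normal lamellar samples was hybridised to bovine GeneChips, 1 array each, per the labels. The deposited values are linear intensities. Their mean after trimming 2% at each end was 150.02 or 150.03 on every array, as a scaling to 1 common level gives, which is read from the values and stated in no label. The submitters' processing notes name GCRMA with no version. GCRMA usually gives all arrays 1 distribution, which these values do not have, so the summarising step is not settled. Scaling by a single factor per array would not remove differences that depend on brightness. The source of such differences in these data was not tested.

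Samples were grouped by title. Of 24128 probe sets 112 controls were left out, and 13292 of the rest had 1 bovine symbol, 86 several and 10638 none. On log2 values with no offset, probe sets above their array's median on at least 3 of 6 arrays were tested, 12519 in all. The groups were compared with limma 3.58.1 (lmFit, then eBayes; R 4.3.3). Its two-sided p-values were adjusted by Benjamini-Hochberg across the tested probe sets, and an adjusted p under 0.05 was the call. The brightest tested probe set stood for its gene. The error beside a log2 difference is the standard error from limma, and a fold compares geometric means. The procedure was tried on simulated data, with planted log2 differences larger than that of any proteasome gene. It was not tried at the sizes reported for these genes. No arrays shared identical values.

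The proteasome genes, roles and lists were chosen with earlier results of these data known. Per-array values are given for the 3 genes of smallest p per role, for all genes of roles with at most 4, and for the immunoproteasome and standard catalytic subunits; of other lists up to 4 genes of smallest p are named. POMP, ADRM1, ZFAND2A, KRT14 and PTPRC fall outside that rule and were chosen after their values were seen. Alternatives were other filters, scalings, an offset of 64, cyclic loess normalization (added after seeing the data), other variance models, other probe sets, the replicate number as a block and leaving out each array. The number of arrays limits the precision. Sequences were not used here.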

Additional observations from a re-analysis of the deposited data

How the results depend on the processing

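Across 16 alternatives 0 proteasome genes passed the limma test, with 3 arrays per group limiting what could pass. Over all genes 0 were lower in any of them, while 6 were higher when a probe set had to lie above the median on all 6 arrays and 4 with an intensity trend and robust variance; leaving out 1 array gave 0 to 2, with 2 without laminitis replicate 4. The median of the proteasome genes stayed above 0, from 0.078 without laminitis replicate 1 to 0.30 without laminitis replicate 4, and from 0.074 after quantile normalization to 0.29 after median centring. The within-array change of PSMB8 minus PSMB5 reversed to 0.082 after quantile normalization and 0.11 after cyclic loess and ran from -0.53 to 0.49 with 1 array left out; that of PSMB10 minus PSMB7 ran from -0.15 to 0.87. Of 35 genes 19 kept their direction in every alternative, PSMB4, PSMD2, PSMD11, PSME2, PSMB3 and PSMD5 among them. Keeping direction is not keeping size, as PSME1 was 0.0026 without laminitis replicate 1. After quantile normalization PSMA3 (-0.12), PSMA6 (-0.25), PSMA7 (-0.080), PSMC2 (-0.083), PSMD10 (0.038) and PSME4 (0.045) reversed, and after cyclic loess PSMA3 (-0.033), PSMA6 (-0.22), PSMC2 (-0.026), PSMD10 (0.043) and PSME4 (0.075). After median centring PSMB2 (0.018), PSMB7 (0.052), PSMC3 (0.010), PSMD10 (0.071) and PSME4 (0.067) reversed, as did PSMB2 as a mean of its probe sets (0.090) and PSMA4 with array weights (-0.055). The cause of these reversals was not tested. With 1 array left out the differences of the genes that reversed ran from -0.14 to 0.31 for PSMA4, -0.15 to 0.79 for PSMB10, -0.23 to 0.16 for PSMB2, -0.11 to 0.018 for PSMB7, -0.40 to 0.52 for PSMB8, -0.19 to 0.0091 for PSMC3, -0.15 to 0.55 for PSMC4, -0.067 to 0.27 for PSMC5, -0.14 to 0.12 for PSMD10, -0.27 to 0.034 for PSMD9, -0.23 to 0.098 for PSME4 and -0.17 to 0.0083 for PSMF1.

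The groups share replicate numbers 3 and 4, and no label says whether same-numbered arrays share a horse or a batch. The deviations of same-numbered arrays from their group means had r = -0.017 and -0.031 across 12519 probe sets. Pairs with unlike numbers ran from -0.042 to 0.060. So few pairs cannot decide what same-numbered arrays share. With the replicate block the median of the proteasome genes was 0.094, 0 genes passed, and 0 rather than 4 had an unadjusted limma p under 0.05, with PSME2 at 1.11 and a median of 0.019 for the base ATPases; PSMA4 (-0.23), PSMB10 (-0.21), PSMB8 (-0.51), PSMC3 (0.0066), PSMC4 (-0.29), PSMC5 (-0.19), PSMD9 (0.013) and PSMF1 (0.094) reversed.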
